A study of Mus musculus with 3 samples.

Results

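LLC/luc BM2nd cells, a Lewis lung carcinoma line recovered from bone after a second round of selection in mice, held less of the transcripts of 660 genes than the parental LLC/luc cells did. A gene was counted as reduced when it lay above background in parental cells and its log2 ratio of BM2nd to parental intensity was below -0.58, each gene being represented by its brightest probe, on average over the arrays. Background was the 95th percentile of probes for olfactory and vomeronasal receptor genes, which belong to sensory neurons. Of 19057 genes with a named probe, 9661 lay above background in parental cells, so the reduced genes made up 6.83% of those compared, and 665 genes, 6.88%, passed the same distance in the other direction. The genes were thus chosen by their parental and BM2nd intensities, and the ratio of these is given for each of them as a description only. Each count of reduced genes in a list or family below is to be read beside the share of 6.83%.

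All 3 lines descend from Lewis lung carcinoma of C57BL/6 mice and carry a luciferase gene, and the labels call every one of them osteotropic, the parental line included. LLC/luc P is the parental line. LLC/luc BM1st was cultured from tibial lesions that formed after parental cells had been injected into the left ventricle, and LLC/luc BM2nd in the same way after BM1st cells had been injected. The cells were grown in DMEM with serum, the RNA was hybridised to Illumina mouse bead arrays, and there was 1 array per line. No replicate stands behind a value, so no difference below has a replicate check and no p-value is given. Each sub-line is a single culture. By the study's account BM2nd came from the marrow of 1 mouse, and BM1st from mice whose number is not stated there, so a trait of that animal or culture and an effect of selection cannot be told apart. In such a culture, fewer cells that express a gene and less RNA of that gene in each cell cannot be told apart. The parental array enters the ratios BM2nd/P and BM1st/P and the BM2nd array enters BM2nd/P and BM2nd/BM1st, so these ratios are not independent of each other.

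Of the pathways examined, those with the most reduced genes belong to the programmes that set how much protein a cell can make. The gene lists behind these pathways were written with earlier results of these data known, so their counts are descriptions and not tests. In the integrated stress response, kinases that sense amino acid shortage, unfolded protein, lack of haem or viral RNA phosphorylate the initiation factor eIF2, general translation slows, and the transcription factor ATF4 is translated instead. ATF4 and its partners of the C/EBP family bind composite response elements and switch on genes for amino acid synthesis, amino acid uptake, tRNA charging and, with CHOP, for recovery or death. Ribosome biogenesis, the other large group, takes place mainly in the nucleolus, where RNA polymerase I transcribes ribosomal RNA and a large set of factors cut, modify and fold it with ribosomal proteins. MYC, which binds E-box sequences, is known to raise the transcripts of many of these factors, and both programmes are commonly active in growing tumour cells.

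Promoter sequences of reduced genes, searched for the response elements of these pathways, are shown first, and only a minority of these promoters held one. They come from RefSeq, build GRCm38.p6, in which 523 of the 660 genes had a window of 250 bases before to 50 bases after a start site, and a gene with several start sites counted once if any window matched. The composite C/EBP-ATF element was searched as TGATGNAA on both strands, and a match can overlap one of the other motifs searched, as with the heat shock element GAANNTTC in Asns below. It was present in 32 of the 523 reduced genes, 6.12%, in 2.81% of all genes above background in parental cells and in 4.51% of all genes with a window. Outside the integrated stress response list and the ribosome assembly genes described below, 21 of 447 reduced genes held it, 4.7%. Among the reduced genes of the integrated stress response list 9 of 28 held it, 32.1%. That list is made of known ATF4 and CHOP targets, so many of its genes may hold the element whether reduced or not. No share was computed for its genes that were not reduced, so the 32.1% is a description only. The stretches below are those that lie before the start site, from 7 of the 9 genes, with up to 20 bases on either side and the match in capitals.
Fgf21, chr7:45615602-45615649, minus strand: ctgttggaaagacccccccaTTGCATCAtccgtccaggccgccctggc
Chac1, chr2:119351029-119351076, plus strand: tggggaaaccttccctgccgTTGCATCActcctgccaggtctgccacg
Asns, chr6:7693210-7693252, minus strand: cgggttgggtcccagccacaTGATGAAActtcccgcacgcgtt
Vldlr, chr19:27216800-27216847, plus strand: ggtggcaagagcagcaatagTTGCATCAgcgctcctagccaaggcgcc
Nupr1, chr7:126625553-126625600, minus strand: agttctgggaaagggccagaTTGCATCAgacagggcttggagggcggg
Slc7a11, chr3:50443633-50443680, minus strand: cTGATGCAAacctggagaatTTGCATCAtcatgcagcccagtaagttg
Herpud1, chr8:94386297-94386344, plus strand: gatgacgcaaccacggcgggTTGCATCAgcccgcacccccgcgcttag
Slc7a11 carried a pair of matches in 1 stretch, on opposite strands. The match in Asns lay 15 bases before the start site, and those of the other genes between 39 and 192 bases before it. Of the genes that hold an element, Asns, Chac1, Fgf21, Nupr1 and Slc7a11 return in the values below.

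The E-box, CACGTG, which reads the same on both strands, was present in 87 of 523 reduced genes, 16.6%, against 12.2% of all genes above background and 8.09% of all genes with a window. Among the reduced genes that take part in ribosome assembly 15 of 48 held it, 31.2%. This group joins the ribosome biogenesis list with a further list put together with the reduced genes in view. No share was computed for ribosome factors that were not reduced, so the 31.2% is a description only. Of the 15 genes, 5 had a match before the start site, and all 5 are from the further list.
Rpf2, chr10:40246980-40247025, minus strand: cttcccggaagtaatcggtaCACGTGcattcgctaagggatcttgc
Utp25, chr1:193130203-193130233, minus strand: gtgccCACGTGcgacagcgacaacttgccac
Nmd3, chr3:69721921-69721966, plus strand: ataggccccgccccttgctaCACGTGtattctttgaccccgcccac
Dhx33, chr11:71004442-71004487, minus strand: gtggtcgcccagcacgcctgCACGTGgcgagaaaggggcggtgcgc
Aatf, chr11:84513680-84513725, minus strand: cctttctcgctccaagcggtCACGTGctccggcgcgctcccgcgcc
The antioxidant response element, TGACNNNGC, was present in 17.8% of the reduced genes and 16.5% of all genes above background, and in 9 of 28 of the reduced stress response genes. The cAMP response element TGACGTCA, the AP-1 site TGANTCA, the heat shock element GAANNTTC, the CCAAT box CCAAT and the NRF1 site were found in 4.59%, 7.46%, 6.69%, 41.7% and 2.29% of the reduced genes. The corresponding shares of all genes above background were 3.63%, 6.33%, 6.87%, 43.1% and 2.34%. A match says only that these letters are in the window, and several of the motifs share letters with one another.

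Trib3, a pseudokinase that restrains AKT and ATF4 signalling, had the most negative ratio of all genes compared. Its intensity was 8611 in parental cells, 3642 in BM1st cells and 900 in BM2nd cells, a log2 BM2nd/P ratio of -3.26 or a 9.57-fold lower intensity. The level was thus lower at each round, and 2 further probes for Trib3 gave log2 ratios of -3.04 and -3.14. Chchd10, which helps to hold the cristae of mitochondria in shape, gave intensities of 846, 285 and 106 on the parental, BM1st and BM2nd arrays. The last value is not above background, so Chchd10 was at least 7.89-fold lower in BM2nd cells. Cox6a2, the heart and muscle form of a cytochrome c oxidase subunit, had intensities of 727, 297 and 127 in parental, BM1st and BM2nd cells and a log2 ratio of -2.51. The long non-coding RNA 5430416N02Rik had intensities of 3403, 1542 and 649 and a log2 ratio of -2.39. These 4 genes stepped down at both rounds, whereas Fam110c, which encodes a centrosome-associated protein, stood at 1809, 2012 and 412 and was lower only in the BM2nd array. Gch1, the enzyme that commits GTP to tetrahydrobiopterin, had the same form, with intensities of 1911, 1946 and 510. Further genes with log2 ratios between -2.07 and -1.74 were Ppp1r15a, Cyb5r1, Leprotl1, Angptl6, Slc25a33, Wnt7b, Hbegf, Wars, Steap1, Fam171b, Il11, Nop56, Reep6 and Mcrip2.

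**Figure D1:**
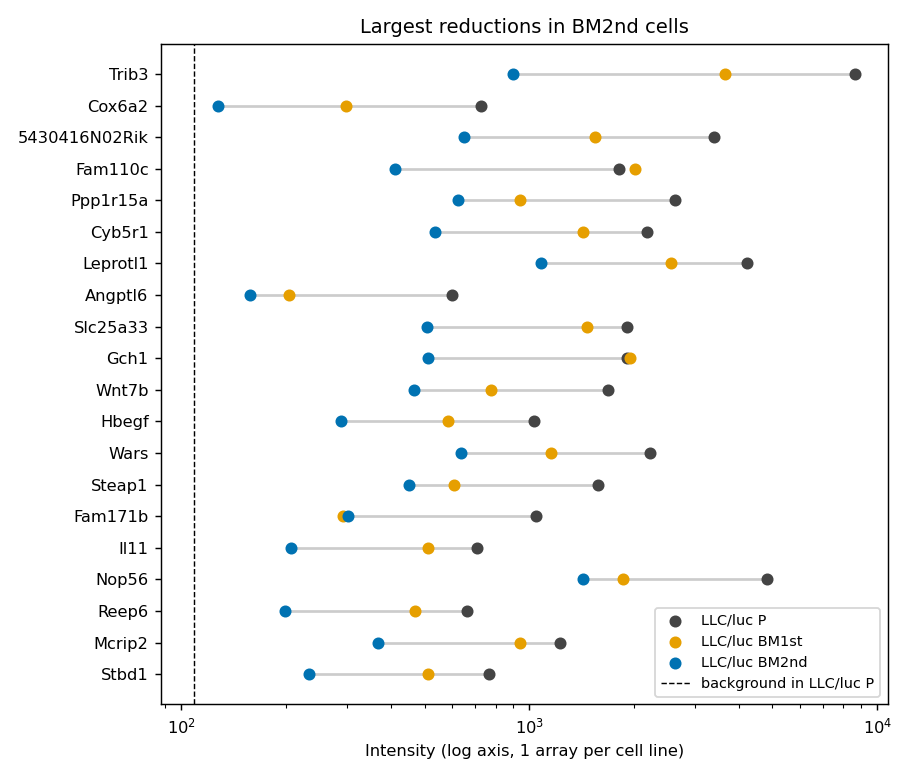
Intensity on a log axis of the 20 genes with the most negative log2 BM2nd/P ratio among those above background in BM2nd cells, with 1 point per array (grey LLC/luc P, orange LLC/luc BM1st, blue LLC/luc BM2nd) and the parental background of 109 as a dashed line. The BM1st point lies between the others for most genes, beside the parental point for Gch1 and Fam110c, and beside the BM2nd point for Fam171b.

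Genes of the integrated stress response were reduced in 32 of the 47 list members above background, none was above 0.58, and the median log2 BM2nd/P ratio of the 47 was -0.83 against -0.02 for all genes compared. Ppp1r15a, better known as GADD34, directs a phosphatase to eIF2 and so ends the response. Its intensity was 2630 in parental cells, 940 in BM1st cells and 626 in BM2nd cells, a log2 ratio of -2.07 that was mostly reached in BM1st cells. Ddit3, the gene of CHOP, had intensities of 1823, 1474 and 665, with a log2 ratio of -1.45 that lay mostly between BM1st and BM2nd cells, and its other probe gave -1.51. Chac1, which degrades glutathione, had intensities of 1832, 1953 and 713 and a log2 ratio of -1.36. Among the transcription factors that act with ATF4, Atf5 had a log2 ratio of -1.24 and Cebpg, a C/EBP partner of ATF4, one of -1.30. Sesn2, a leucine sensor upstream of mTORC1, was at -1.08, and Bbc3, which encodes the death factor PUMA, at -1.42. Atf4 itself was not among the reduced genes, with intensities of 6923, 6493 and 5172 and a log2 ratio of -0.42. Atf3 was at -0.46 and Cebpb at -0.35, both short of the threshold as well. The list genes that lay highest were Map1lc3b at 0.54 and Ddit4 at 0.52, an autophagy gene and an mTORC1 inhibitor that are also known to respond to hypoxia. Chac1, Atf5, Cebpg and the genes short of the threshold were picked for mention after their values were seen.

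The synthesis of serine, one-carbon units, proline and asparagine had 10 reduced genes of 15 above background, none above 0.58 and a median log2 ratio of -0.88. Of these 10 genes 9 are also in the stress response list, so the counts of the lists are not separate. Asns, which makes asparagine, had intensities of 12978 in parental, 12849 in BM1st and 5420 in BM2nd cells. The log2 BM2nd/P ratio was -1.26 and the BM1st value stood beside the parental one, and 2 other Asns probes gave -1.20 and -1.50. Mthfd2, which oxidises methylene-tetrahydrofolate in mitochondria, had the same form, with intensities of 9837, 9813 and 3967 and a log2 ratio of -1.31. Its other probe gave -1.61. Cth, which makes cysteine from cystathionine, had intensities of 376, 284 and 119 and a log2 ratio of -1.66. Aldh1l2, a mitochondrial folate enzyme, was at -1.30, Gpt2, which makes alanine, at -1.26, and Shmt2, which splits serine, at -1.02. The serine pathway enzymes Phgdh and Psat1 were at -0.77 and -0.65. In the list Got2, at -0.19, and Oat, at 0.47, which handle aspartate and ornithine, were not reduced, nor was Mthfd1, the cytosolic folate enzyme, at -0.44. Phgdh, Psat1 and the genes that were not reduced were picked for mention after their values were seen.

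Of 33 aminoacyl-tRNA synthetases above background, 10 were reduced and 1 was above 0.58, with a median log2 ratio of -0.27. All but 1 of the reduced genes named here charge tRNA in the cytosol, and 8 of the 10 had the larger part of their reduction between BM1st and BM2nd cells. Wars, for tryptophan, had intensities of 2229 in parental, 1155 in BM1st and 639 in BM2nd cells and a log2 ratio of -1.80, and 3 other probes gave -1.09, -1.33 and -1.50. Sars, for serine, had intensities of 2775, 2736 and 1109 and a log2 ratio of -1.32. Nars, Lars, Mars1 and Aars, for asparagine, leucine, methionine and alanine, had log2 ratios of -1.19, -1.11, -1.07 and -0.97. Mars2, the mitochondrial enzyme for methionine, was at -0.90 and was picked for mention after its value was seen. Amino acid transporters were reduced in 4 of 18 genes above background, with 1 above 0.58 and a median of -0.17. Slc7a11, the cystine importer, had intensities of 441 in parental, 2032 in BM1st and 271 in BM2nd cells, so the BM1st array stood far above both others. Slc1a4, which carries alanine, serine and cysteine, went the same way, with intensities of 927, 1425 and 528. The list of endoplasmic reticulum chaperones and other genes of the response to unfolded protein had 3 reduced genes of 32 and a median of 0.05. That is 9.38%, near the 6.83% of all genes compared. The 3 genes were Ern1, the sensor IRE1, at -1.34, Hspa5, the chaperone BiP, at -0.88, and Herpud1, a degradation factor, at -0.59. Ern1 and Herpud1 are counted in the stress response list too, and Hspa5 had intensities of 289, 228 and 157.

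**Figure D2:**
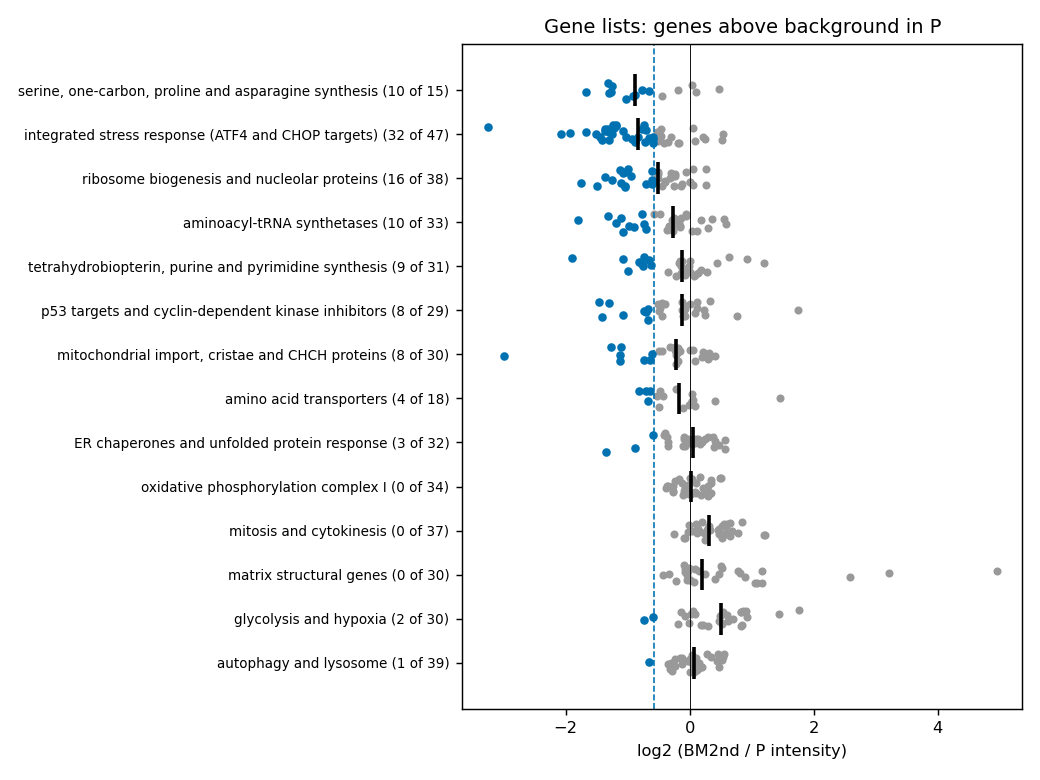
Log2 BM2nd/P ratio (horizontal axis) of every gene above background in parental cells in 14 gene lists, 1 point per gene, with reduced genes in blue, the others in grey, the median of a list as a black bar and the threshold of -0.58 as a dashed line. The counts in brackets are reduced genes of genes above background, and the medians run from -0.88 for serine and one-carbon synthesis to 0.51 for glycolysis and hypoxia.

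Ribosome biogenesis and nucleolar proteins had 16 reduced genes of 38 above background, none above 0.58, and a median log2 ratio of -0.51. Nop56, a core protein of the particles that methylate ribosomal RNA, had intensities of 4839 in parental, 1857 in BM1st and 1431 in BM2nd cells, a log2 ratio of -1.76 that was mostly reached in BM1st cells. Rrp9, which binds the U3 small nucleolar RNA, had intensities of 1275, 982 and 451 and a log2 ratio of -1.50. Gnl3, or nucleostemin, had intensities of 460, 329 and 179 and a log2 ratio of -1.36. In contrast to Nop56, most of the list had the larger part of the reduction between BM1st and BM2nd cells, as in 13 of the 16 genes. Wdr43 of the small subunit processome was at -1.26, Ebna1bp2, a large subunit factor, at -1.12, Nip7 at -1.11 and the helicase Ddx21 at -1.07. Of RNA polymerase I, Polr1e was at -0.71 and Polr1b at -0.61, whereas Polr1a, the largest subunit, was at -0.12 and Polr1c at 0.26. The abundant nucleolar proteins nucleophosmin, Npm1, and nucleolin, Ncl, had log2 ratios of 0.05 and 0.01. The genes short of the threshold in this list were picked for mention after their values were seen.

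A further list of 78 ribosome assembly factors above background, put together with the reduced genes in view, held 41 reduced genes and none above 0.58, and its count is therefore only an account of where these genes belong. Znhit6, needed to assemble box C/D small nucleolar particles, had intensities of 1394, 792 and 564 in parental, BM1st and BM2nd cells and a log2 ratio of -1.31. Heatr1, which links the processome to RNA polymerase I, had intensities of 6174, 4350 and 2889, and its log2 ratio was -1.10. Rpf2, which brings 5S RNA into the large subunit, was at -1.12, Nle1, a partner of the remodelling enzyme Mdn1, at -1.12, Lyar at -1.14 and Pwp2 of the processome at -1.10. The exosome, which trims ribosomal RNA, had 3 reduced genes of 8, with Exosc1 at -0.95. Of the genes that host small nucleolar RNAs or encode them, 5 of 9 were reduced. Snhg12 had intensities of 7130, 5059 and 2405, Snhg16 had 3750, 1830 and 1270, and Snhg5 had 3908, 2361 and 1486, with log2 ratios of -1.57, -1.56 and -1.39. All 3 host genes stepped down at both rounds. Of cytosolic ribosomal protein symbols 3 of 59 were reduced, 5.08%, near the 6.83% of all genes compared. Of the 3 only Rpl29, at -0.62, is a subunit of the ribosome itself, Rps19bp1 and Rpl7l1 being associated or related proteins.

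Myc, a transcription factor known to raise transcripts of many ribosome factors, had intensities of 1245 in parental, 1627 in BM1st and 679 in BM2nd cells. Its log2 BM2nd/P ratio was -0.87, and no other Myc probe was above background. In BM1st/P it was at 0.39, and the 16 reduced genes of the ribosome biogenesis list had a median of -0.33. A part of Myc in the reduction of these genes was not tested. Pvt1, the long non-coding RNA gene next to Myc, had the same order of arrays as Myc, with intensities of 3129, 3562 and 1928 and a log2 ratio of -0.70. Mir17hg, the host transcript of the miR-17 to 92 cluster and a known MYC target, had intensities of 937, 692 and 377 and a log2 ratio of -1.31. The array reads the host transcript and not the mature miRNAs, whose sequences are given with the seed, bases 2 to 8, in capitals to show what the locus encodes. They come from RefSeq and lie on chromosome 14 of GRCm38.p6.
mmu-miR-17-5p: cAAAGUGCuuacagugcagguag
mmu-miR-20a-5p: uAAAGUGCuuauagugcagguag
mmu-miR-18a-5p: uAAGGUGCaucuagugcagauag
mmu-miR-19a-3p: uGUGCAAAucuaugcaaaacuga
mmu-miR-19b-3p: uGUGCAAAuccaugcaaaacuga
mmu-miR-92a-3p: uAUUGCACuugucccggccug
miR-17-5p and miR-20a-5p share a seed, as do miR-19a-3p and miR-19b-3p. In all, 11 of 115 long non-coding RNA genes above background were reduced, or 9.57%, near the 6.83% of all genes compared. Xist, the RNA that coats the inactive X chromosome, was among them, with intensities of 509, 580 and 240, a log2 ratio of -1.09 and 3 other probes at -1.09, -0.96 and -0.69. Pvt1, Mir17hg and Xist were picked for mention after their values were seen.

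Enzymes that process and modify tRNA were reduced in 17 of 65 genes above background, with a median of -0.33, and the list was written after the values were seen. Dus4l, a dihydrouridine synthase, had a log2 ratio of -1.16, Rpp14 of ribonuclease P one of -1.07, and Qtrt1, which inserts queuine, one of -1.02. Of 7 protein arginine methyltransferases above background 4 were reduced, Prmt7 at -1.03, Prmt1 at -0.71, Prmt5 at -0.69 and Prmt6 at -0.58, and this list too was written after the values were seen. Translation factors had 6 reduced genes of 43 and a median of -0.04. Eif4ebp1, the repressor of cap-dependent translation and an ATF4 target, led them with intensities of 13101, 13841 and 6855 in parental, BM1st and BM2nd cells. Its BM1st value stood at the parental level. Spermidine synthase, Srm, had a log2 ratio of -1.21 and spermine oxidase, Smox, one of -1.30, the 2 reduced genes of 12 in polyamine and methionine metabolism.

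The share of reduced genes differed between classes of mitochondrial genes. The import and cristae list had 8 reduced genes of 30 above background, none above 0.58 and a median of -0.22. Beside Chchd10 it held Chchd4, which oxidises imported proteins, at -1.12, and the small chaperones of the intermembrane space Timm10, Timm8a1 and Timm9 at -1.27, -1.13 and -1.11. Chchd4 had intensities of 1473, 1420 and 675 in parental, BM1st and BM2nd cells, and Timm10 had 1100, 1004 and 457. Both were lower mainly in the BM2nd array. Lonp1, the matrix protease, had intensities of 3249, 1468 and 1110 and a log2 ratio of -1.55, mostly reached in BM1st cells. Hspa9, the motor that pulls proteins into the matrix, had 23409, 19032 and 13506 and a log2 ratio of -0.79, with its partner Dnaja3 at -0.98 and the protease Clpp at -0.82. The matrix chaperonin genes Hspd1 and Hspe1, named after their values were seen, were at 0.11 and -0.03. Mitochondrial ribosomal proteins had 10 reduced genes of 73, led by Mrps10 with intensities of 4014, 3827 and 2007. Of complex I, 0 of 34 genes were reduced, with ratios from -0.39 to 0.51. A list of this size would hold few reduced genes in any case, so the count of 0 says little. Of complexes II to V 3 of 38 were, namely Cox6a2, Uqcrq at -0.66 and Cycs, cytochrome c, at -0.65. That is 7.89%, near the 6.83% of all genes compared. Slc25a33, a pyrimidine nucleotide carrier of the inner membrane, had intensities of 1915, 1467 and 508 and a log2 ratio of -1.92. In its family of mitochondrial carriers 2 of 32 genes above background were reduced, 6.25%, also near that share.

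Nucleotide synthesis held 9 reduced genes of 31 above background, 3 above 0.58 and a median of -0.13. Beside Gch1 these were Dut, which removes dUTP, at -1.07, Dctpp1, which clears modified dCTP, at -0.99, the pyrimidine enzymes Umps and Dhodh at -0.81 and -0.77, Prps1, which makes the ribose donor, at -0.75, and Gart, Atic and Ctps at -0.73, -0.66 and -0.63. Dut had intensities of 510, 197 and 243 in parental, BM1st and BM2nd cells, lowest in BM1st cells. Gart, Atic and Ctps were picked for mention after their values were seen. Of DNA replication genes 0 of 38 and of genes of mitosis and cytokinesis 0 of 37 were reduced, with medians of 0.20 and 0.32. No gene of cholesterol synthesis or uptake, of 19 above background, and no structural matrix gene, of 30, was reduced either. With 6.83% of all genes compared reduced, lists of these sizes would hold few reduced genes in any case, so the counts of 0 say little. Of 30 glycolysis and hypoxia genes above background 2 were reduced, Pfkp at -0.74 and Vegfa at -0.59, and 12 were above 0.58. The reduced share was 6.67%, near the 6.83% of all genes compared.

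Several of the reduced genes encode signals that leave the cell. Wnt7b, a Wnt ligand of lung epithelium, had intensities of 1679 in parental, 776 in BM1st and 468 in BM2nd cells and a log2 ratio of -1.84. Hbegf, a ligand of the EGF receptor, had 1031, 585 and 288 and a log2 ratio of -1.84. Il11, a cytokine of the interleukin 6 family known for its part in osteoclast formation, had 706, 510 and 206 and a log2 ratio of -1.78. All 3 ligands were highest in parental cells and stepped down at each round. Fgf21, the stress hormone, had intensities of 332, 1251 and 117, so that it was highest in BM1st cells and lowest in BM2nd cells. Fgf7, a ligand of epithelial receptors, had 975, 285 and 545 and was lowest in BM1st cells. In the list of secreted factors and receptors 6 of 35 genes were reduced and 7 were above 0.58, with a median of 0.06. Wnt7b is not in that list. It was the only reduced gene of 22 in the list of Wnt, Notch and Hedgehog pathways, 4.55%, beside 3 above 0.58. Plau, the urokinase that activates plasmin, had intensities of 841, 554 and 288 and a log2 ratio of -1.55, and the collagenase gene Mmp13 had 479, 202 and 181 and a log2 ratio of -1.41. They were the 2 reduced genes of 23 in the list of matrix proteases and inhibitors, 8.7% against 6.83% of all genes compared. The other Mmp13 probe above background gave a log2 ratio of -0.09 but had a parental intensity of only 114, against a background of 109, where a lower level could hardly be read.

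The list of p53 targets and cell cycle inhibitors included 8 reduced genes of 29, with 2 above 0.58 and a median of -0.13. Plk3, a stress kinase, had intensities of 2365, 3046 and 855 in parental, BM1st and BM2nd cells, and Gadd45a, a DNA damage sensor, had 3997, 7837 and 1627. In both the BM1st array was highest and the BM2nd array lowest. Mdm2, which degrades p53, was at -0.71. Bbc3 and Sesn2 of this list are counted in the stress response list too. Among immediate early and MAPK feedback genes 4 of 32 were reduced, Hbegf, Myc, the receptor kinase inhibitor Spry4 at -0.74, and Etv4, an ETS factor, at -0.58.

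Of the 660 genes, 639 were still above background in BM2nd cells and 21 were not. For those 21 the ratio understates the change, and a bound is given. Grb10, an imprinted adaptor that restrains insulin receptor signalling, had intensities of 403 in parental, 99.6 in BM1st and 88.1 in BM2nd cells and was at least 3.76-fold lower in BM2nd cells, and its other probe, barely above background at a parental intensity of 115, gave a log2 ratio of -0.05. Fxyd6, a regulator of the sodium pump, had 330, 90.3 and 85.0 and was at least 3.08-fold lower. Ndn, the imprinted gene of necdin, had 298, 111 and 95.3 and was at least 2.78-fold lower. These 3 genes were close to background already in BM1st cells. The homeobox gene Cdx2 was at least 2.21-fold lower, the nuclear pore gene Nup210 at least 2.14-fold, and the junction gene F11r at least 1.46-fold. Of 15 imprinted genes above background 3 were reduced, the other one being Peg3, with intensities of 217, 116 and 139.

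The BM1st array lay between the parental and BM2nd arrays in 469 of the 660 genes, at or above the parental array in 140, and at or below the BM2nd array in 51. The median log2 BM1st/P ratio was -0.33 and the median log2 BM2nd/BM1st ratio was -0.51, against a median BM2nd/P ratio of -0.76. In BM1st cells 520 of the 660, or 78.8%, were below the parental level, against 54.7% of all genes compared, and 157, or 23.8%, were already below -0.58, against 6.91%. Between BM1st and BM2nd cells 289, or 43.8%, were below -0.58, against 7.67%. The larger part of the reduction lay in the second step for 404 genes and in the first for 256. Since the parental and BM2nd values that set the rule are also in these ratios, the shares are a description and cannot be set against the background as evidence. In the stress response list 26 of 32 reduced genes had the larger part in the second step, with median log2 ratios of -0.29 for BM1st/P and -0.85 for BM2nd/BM1st, and 10 of the 32 stood at or above the parental level in BM1st cells.

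**Figure D3:**
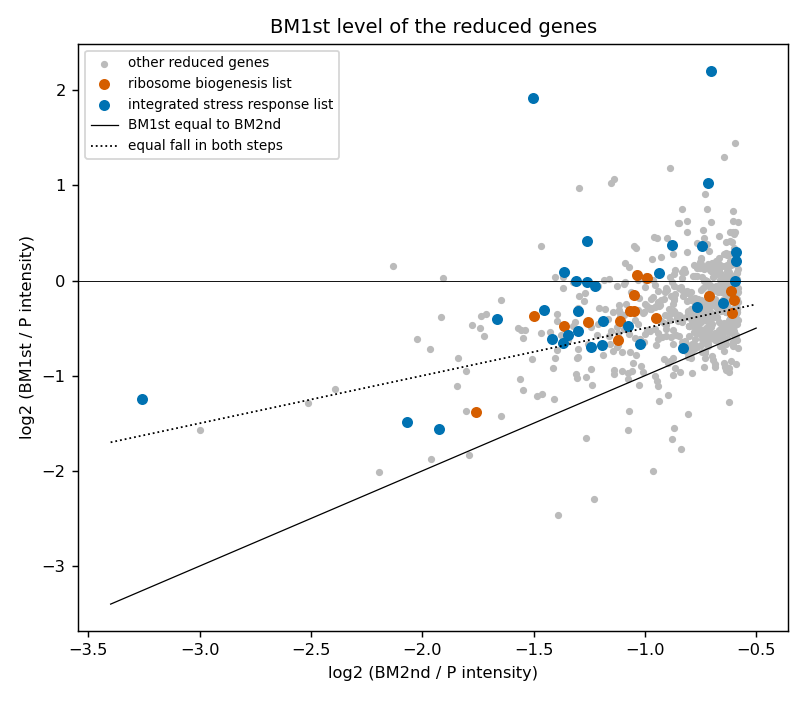
Log2 BM2nd/P ratio (horizontal axis) against log2 BM1st/P ratio (vertical axis) of the 660 reduced genes, 1 point per gene, with the 32 stress response genes in blue and the 16 ribosome biogenesis genes in orange. Points above 0 were higher in BM1st than in parental cells, points below the solid line were lower in BM1st than in BM2nd cells, and most points lie above the dotted line of an equal fall in both steps.

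Genes at the ends of this range had opposite forms. Nnmt, which methylates nicotinamide, had intensities of 936 in parental, 170 in BM1st and 357 in BM2nd cells, and Ankrd1, a target of YAP, had 710, 145 and 303. Cdon, a Hedgehog co-receptor, had 548, 137 and 281. All 3 were lowest in BM1st cells and partly recovered in BM2nd cells. At the other end, 19 reduced genes were above 0.58 in BM1st/P, 2.88% against 6.49% of all genes. Slc7a11 and Fgf21 led them, followed by Phex, an endopeptidase gene active in bone and teeth, with intensities of 225, 611 and 149, and Kdm7a, a histone demethylase gene, with 1066, 2627 and 683. Nupr1, a stress-induced chromatin protein, had 2022, 4103 and 1229. The BM1st array also differed in ways that run across many genes. The list of mitosis and cytokinesis had a median log2 BM1st/P ratio of -1.36 and that of DNA replication one of -0.68, while in BM2nd/BM1st they were at 1.93 and 0.76. Their part in the BM1st level of the reduced genes was not tested.

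Other probes for the same genes bear on the probe and not on the cells, since they read the same RNA. Of the 660 genes 249 had 1 probe and 411 had several, and for 315 genes 465 further probes lay above background in parental cells. Of these probes 447, or 96.1%, had a log2 BM2nd/P ratio below 0, against 57.9% of all 5214 such probes, and 202, or 43.4%, were below -0.58, against 5.75%. Their median was -0.53 against -0.05. The further probes were mostly dimmer than the probe that chose the gene, and the deposited values still contain the background. At a parental intensity below 200, 5 of 158 were below -0.58, with a median of -0.22, and at 200 or more 197 of 307 were, with a median of -0.69. For 154 genes another probe was itself below -0.58, and for 297 all of the others were below 0. In the stress response list all 25 further probes of 17 genes were below 0 and 16 were below -0.58. In the ribosome biogenesis list all 6 further probes of 5 genes were below 0 and 2 were below -0.58.

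**Figure D4:**
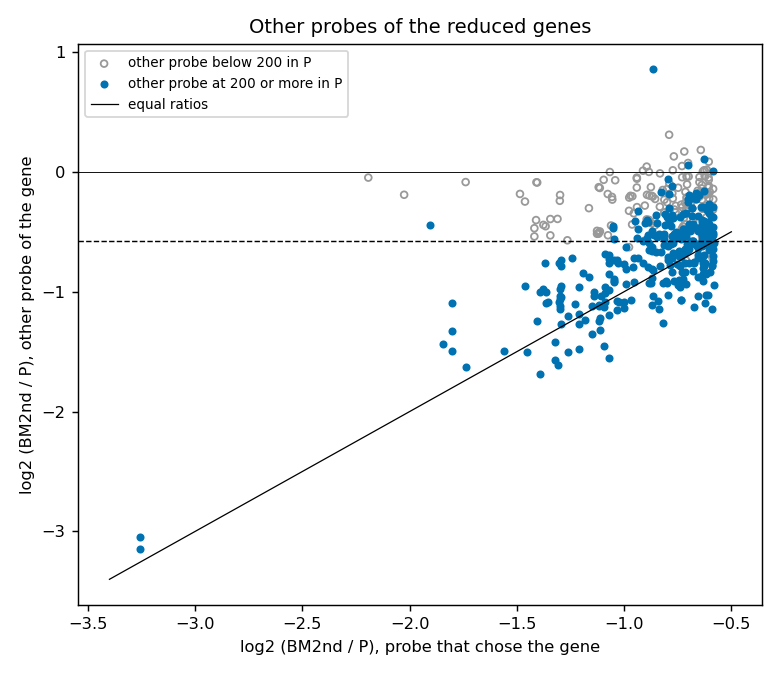
Log2 BM2nd/P ratio of the probe that chose a gene (horizontal axis) and of each further probe above background in parental cells (vertical axis), 465 probes of 315 reduced genes, with filled points for a parental intensity of 200 or more and open points below it. The solid line marks equal ratios and the dashed line the threshold, and the open points lie nearer to 0 than the filled ones.

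A few probes went against the gene's call. For Ptpre, a receptor phosphatase, the chosen probe gave a log2 ratio of -0.87 and another probe gave 0.85, with intensities of 337, 562 and 609, the only further probe above 0.58. Of the others 17 were between 0 and 0.58, mostly at low intensity, and included probes for Ldah, Shmt1, Pdhb and Serbp1. Grb10, Cyb5r1, Ptpre, Reep6 and Gch1 had the further probes that lay farthest above the chosen one, and those of Grb10, Cyb5r1 and Reep6 were close to background, at parental intensities of 115, 113 and 112. That of Gch1 had a parental intensity of 204 and a log2 ratio of -0.44, against -1.91. In the 3154 genes that had at least 2 probes above background on every array, the median SD between them was 0.14 on the log2 scale. Ldah, Shmt1 and Pdhb were picked for mention after their values were seen.

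Reduced genes were read from brighter probes than the rest, with a median parental intensity of 980 against 363, and a range from 142 to 23409. With the genes divided by parental intensity into 5 equal groups, their share was 0.0% in the dimmest, then 3.21%, 7.35%, 10.6% and 13.0% in the brightest. Because background remains in the values, the ratios of dim genes are compressed and such genes are under-counted. Of the 660, 162, or 1.68% of all genes compared, were below -1, 8 were below -2, and 498 lay between the threshold and -1. Nearest to the threshold on the inside were Etv4, Acvr2b, Tdg and Nt5c3, with ratios from -0.5808 to -0.5804, and nearest outside were Gtpbp10, Scand1, Rhob and Snx8, from -0.5793 to -0.5785, so these 8 genes are not distinguished by their values. Among the receptor probes the SD of the ratio was 0.12 and the lowest was -0.33, so none passed the threshold. Most of these probes lie at background, where ratios are compressed, so they do not show the spread at the intensities of the reduced genes. The robust SD over all genes compared was 0.31.

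The reduced genes came from every autosome and the X chromosome by the RefSeq positions of 658 of them in GRCm38.p6. The share of genes above background that were reduced was 11.2% on chromosome 14, 36 of 322 genes, and 11.1% on chromosome 10, 53 of 478, against 6.83% over all. It was lowest on chromosome 15, at 3.97%, and chromosome 13, at 4.11%. The median log2 BM2nd/P ratio of all genes of chromosome 14 was -0.17, and that of BM1st/P was -0.21, while chromosome 15 had medians of 0.10 and 0.03. Both medians of a chromosome were taken against the same parental array, so they are not separate measurements of a shift. Among windows of 15 neighbouring genes above background, the most crowded held 7 reduced genes, a number found in 4 of 9363 overlapping windows. The run lay on chromosome 5 between Uso1 and Antxr2, and the 7 were Sdad1, Nup54, Stbd1, Mrpl1, Anxa3, Paqr3 and Antxr2. Stbd1, which binds glycogen, had intensities of 766, 512 and 232, and Anxa3, an annexin, had 11722, 4016 and 6411. Chromosomes and windows were examined after the values were seen.

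**Figure D5:**
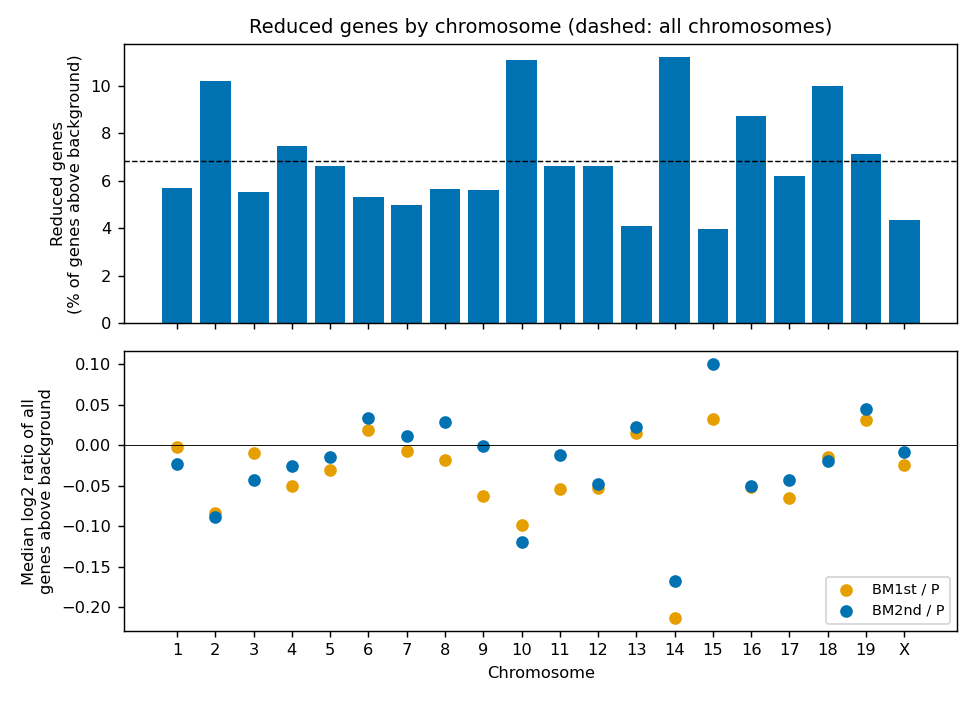
Share of genes above background in parental cells that were reduced (upper panel, percent, dashed line at 6.83% for all) and median log2 ratio of all genes above background (lower panel, orange BM1st/P, blue BM2nd/P), by chromosome. Chromosomes 14 and 10 have the highest shares and the lowest medians, and chromosome 15 has the lowest share and the highest median.

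The labelled cell type was checked on markers. Of 13 lung carcinoma epithelium markers 5 were above background in parental cells. Krt8 and Krt18, keratins of simple epithelium, had parental intensities of 1381 and 2025, whereas Epcam and the surfactant genes Sftpc, Sftpb and Sftpa1 were not above background, and Cdh1, at 121, was barely so. The summed intensity of the 13 was 4494, 4338 and 4830 in parental, BM1st and BM2nd cells. It rested largely on these keratins, which went opposite ways. Krt18, itself a reduced gene, had intensities of 2025, 2280 and 1274 and a log2 BM2nd/P ratio of -0.67, and Krt8 had 1381, 997 and 2509 and a ratio of 0.86. Markers of fibroblasts and marrow stroma included 0 reduced genes, and the summed intensity of the 21 with a probe was 9065, 14749 and 25324, with 13, 12 and 14 above background. The rise of this sum rested largely on Lum, the gene the study followed, at 198, 1742 and 6133, with Dcn at 1027, 6259 and 6174 and Dpt at 142, 418 and 2213. Pdgfrb, Thy1, Postn, Bglap and Adipoq of the same list were not above background on any array. The leukocyte markers also included 0 reduced genes, and the sum of 19 was 2090, 6934 and 3700, with 4, 12 and 9 above background. The pan-leukocyte marker Ptprc and the myeloid markers Tyrobp and Itgam stayed at or near background on all arrays, at 83.3 to 111. Cybb, C1qa, S100a8, S100a9 and Cd3e were not above background on any array. Other markers of this list were higher in both sub-lines than in parental cells. Among them Lyz1 had 159, 3169 and 1190, Lyz2 79.5, 1078 and 365, Laptm5 90.1, 367 and 184, and Fcer1g 95.4, 255 and 128. The summed stroma and leukocyte markers move with the sub-lines in which genes were reduced, and their part in the reduction was not tested.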

How the data were processed

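RNA of 3 cell lines was measured on Illumina mouse bead arrays, 1 array per line. The authors deposited linear intensities of 45281 probes, made with GenomeStudio 2011.1 according to the submitters' processing notes. Once sorted, intensities agree between arrays to within 0.274, which quantile normalization gives, and their median of 101 shows that background remained. The sources used here do not state the settings. Annotation paired 34885 probes with 1 gene, 18 with several and 10378 with none, and symbols were updated through RefSeq, GRCm38.p6.

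Log2 ratios, counts and shares were computed in Python 3.11.15 (pandas 2.3.3, numpy 2.4.6) and drawn with matplotlib 3.10.9. Background was the 95th percentile of 1504 receptor probes, at 109, 110 and 107 in parental, BM1st and BM2nd cells. A bound divides the parental intensity by the BM2nd background. The genes and the 37 gene lists were chosen with earlier results of these data known, and 4 lists were added after the values were seen. Named genes are the 20 most negative ratios, the 10 largest bounds, up to 6 per list or symbol family, the genes at the threshold, at the ends of BM1st/P, with the highest parental intensity, or with the most divergent probes. Alternatives varied the background, filter, probe choice, threshold and centring. The authors' other measurements in cells and animals were not analysed here.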

Additional observations from a re-analysis of the deposited data

Results flagged for a closer look

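Of the reduced genes, 8 lay above the parental level by more than 1 on the log2 scale in BM1st cells and below it in BM2nd cells. Their log2 BM1st/P ratios were 2.2 for Slc7a11, 1.91 for Fgf21, 1.44 for Phex, 1.3 for Kdm7a, 1.18 for Pvr, which encodes the poliovirus receptor, 1.07 for Mllt11, 1.02 for the casein gene Csn3 and 1.02 for Nupr1. With 1 array per line these opposite directions were not tested. The corresponding BM2nd/P ratios ran from -0.59 for Phex to -1.50 for Fgf21.

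Probes that the annotation pairs with no gene were outside the gene counts. Of 2615 such probes above background in parental cells, 103 met the same rule, 3.94%, and the lowest log2 BM2nd/P ratio among them was -3.16. The genes they read are not named here.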

How the results depend on the processing

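The number of reduced genes was 660, and it became 1767 with background subtracted, 430 with the mean over all probes of a gene, 1260 at a threshold of -0.4 and 162 at -1. Of the 430, 414 were among the 660. With the same settings in that order the genes also below the threshold in BM1st cells numbered 707, 102, 418 and 28 in place of 157, and those with an intermediate BM1st level 980, 311, 800 and 135 in place of 469. Centring on the median left 598 genes, all among the 660. The share of further probes below 0, 96.1%, became 91.9% with background subtracted, 79.5% with no background filter on these probes, 92.4% at a threshold of -0.4 and 100% at -1, and the share below the threshold, 43.4%, became 68.4%, 27.7% and 48.5% under the first 3 of these. At a threshold of -1 the stress response list held 21 reduced genes, ribosome biogenesis 10 and serine and one-carbon synthesis 6. The promoters of genes above background, in place of all genes, set the comparison for the C/EBP-ATF element at 2.81% and for the E-box at 12.2%. Of the ratios of 225 genes named by rule, 106 moved by more than the median SD between probes with background subtracted, all to lower values, and 90 did so with the mean over all probes, 87 of them to higher values. The mean over probes left 58 of the named reduced genes no longer below -0.58. Centring left 14 of them no longer below it. No named ratio changed sign in these alternatives. No paired analysis was possible because each line has 1 array, and leaving out an array leaves no ratio, so neither was run. The number of arrays and the background left in the values limit every ratio, most of all for dim genes.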
